A study of Mus musculus with 6 samples.

Results

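The 10 rows described here belong to skeletal muscle genes or lie against them, in a table of 20160 rows from mouse sarcoma tumours. Acta1, the skeletal muscle actin, and Des, the muscle intermediate filament protein desmin, are muscle genes themselves. The other 8 rows carry other names, but their exons overlap exons of a muscle gene on the opposite strand: A930016O22Rik with Ckm, Rabep2 with Atp2a1, Ube2c with Tnnc2, Gm44646 with Mybpc2, Gm13601 with Xirp2, Gm49540 with Mb, Myhas with Myh1 and Ccdc127 with Lrrc14b. The 10 rows were picked by symbol because they were higher in treated than in control tumours, so their difference between the groups is given below as a description and is not tested.

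The tumours were grown subcutaneously in BALB/c nude mice, animals without a thymus and with few mature T cells, from injected cells of S-180, a single mouse sarcoma line. All 6 samples carry this graft. The 3 model samples are tumours of mice for which the labels name no further treatment. The 3 RGLS samples come from mice given RGLS, spores of the fungus Ganoderma lucidum without their outer coat, before the tumour cells were injected. The labels give no sex, age, RGLS dose or vehicle, and do not tell whether each sample is a mouse of its own. RNA came from tumour tissue, and the sources used here do not describe how it was cut free of host tissue.

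Skeletal muscle fibres are packed with sarcomeres, in which myosin thick filaments pull on actin thin filaments when calcium binds to troponin. Calcium is released from the sarcoplasmic reticulum and pumped back by a calcium ATPase, and creatine kinase restores the ATP that both processes use. Fast and slow fibres carry different versions of myosin, troponin and the calcium pump, while Ckm, Acta1 and Des serve both kinds.

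Each value is a number of reads assigned to a gene's row, scaled by the authors to CPM, a count relative to the size of the library. The 6 libraries held 369453 to 458641 reads in these rows, against effective library sizes of 17377445 to 25668458, so 1 read was worth 0.0390 to 0.0575 CPM. All 3 RGLS libraries had the larger sizes. The sources used here name no strand setting for the library kit or for the counting. Reads of a row that overlaps a gene on the other strand can therefore come from either gene, and for the 8 opposite rows the 2 sources cannot be told apart. The rows together held 1.79% to 2.21% of each effective library. What the reads of any row stand for, those of Acta1, Des, the muscle genes' own rows and the cell markers included, depends on the unstated setting.

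The shared stretches include protein-coding bases of the muscle gene in 7 of the 8 pairs, as annotated in GENCODE vM21 on GRCm38. The stretches printed here show what a read from such a place looks like in the muscle gene's own direction, and, for the creatine kinase gene, in the direction of the opposite row as well. Capitals mark bases that lie in exons of both genes. For Ckm the stretch is chr7:19421208-19421267 on the plus strand, and A930016O22Rik is read from the minus strand at the same positions. For Xirp2 it is chr2:67516343-67516417 on the plus strand, for Myh1 chr11:67211329-67211388 on the plus strand, and for Mybpc2 chr7:44503764-44503823 on the minus strand. All are written 5′ to 3′.
Ckm: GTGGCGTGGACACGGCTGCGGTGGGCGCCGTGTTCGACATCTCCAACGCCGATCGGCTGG
A930016O22Rik: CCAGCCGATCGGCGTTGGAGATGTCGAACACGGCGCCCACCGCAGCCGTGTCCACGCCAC
Xirp2: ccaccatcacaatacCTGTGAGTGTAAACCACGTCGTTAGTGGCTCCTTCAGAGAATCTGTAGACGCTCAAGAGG
Myh1: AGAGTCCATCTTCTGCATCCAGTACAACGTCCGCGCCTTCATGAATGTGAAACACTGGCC
Mybpc2: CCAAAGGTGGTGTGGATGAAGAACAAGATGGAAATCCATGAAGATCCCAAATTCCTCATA

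The amount of overlap differed between the pairs. A930016O22Rik (chromosome 7, 19417466 to 19421417, minus strand) shared 451 exonic bases with Ckm, 417 of them in the coding sequence of Ckm. Rabep2 (chromosome 7, 126428759 to 126449245, plus strand) shared 763 bases with Atp2a1, 517 of them coding there. Ube2c (chromosome 2, 164769898 to 164778822, plus strand) shared 592 bases with Tnnc2, which is 74.0% of all exonic bases of that small gene, and 477 of them were coding. At Mybpc2, 70 of the 192 bases shared with Gm44646 (chromosome 7, 44501689 to 44504266, plus strand) were coding, and at Xirp2 all 168 bases shared with Gm13601 (chromosome 2, 67491044 to 67516525, minus strand). Gm49540 (chromosome 15, 77014093 to 77015898, plus strand) met Mb over 412 bases, none of them coding. Myhas (chromosome 11, 67211256 to 67237573, minus strand), named as an antisense RNA of the myosin heavy chain genes, shared 515 bases with Myh1, of which 406 were coding. Ccdc127 (chromosome 13, 74350309 to 74365783, plus strand) covered all 2755 exonic bases of Lrrc14b. The map of exons at 4 of these loci shows that the shared bases fall into separate exons of the muscle gene, 3 at Ckm and Atp2a1, 5 at Tnnc2 and 2 at Myh1.

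**Figure D1:**
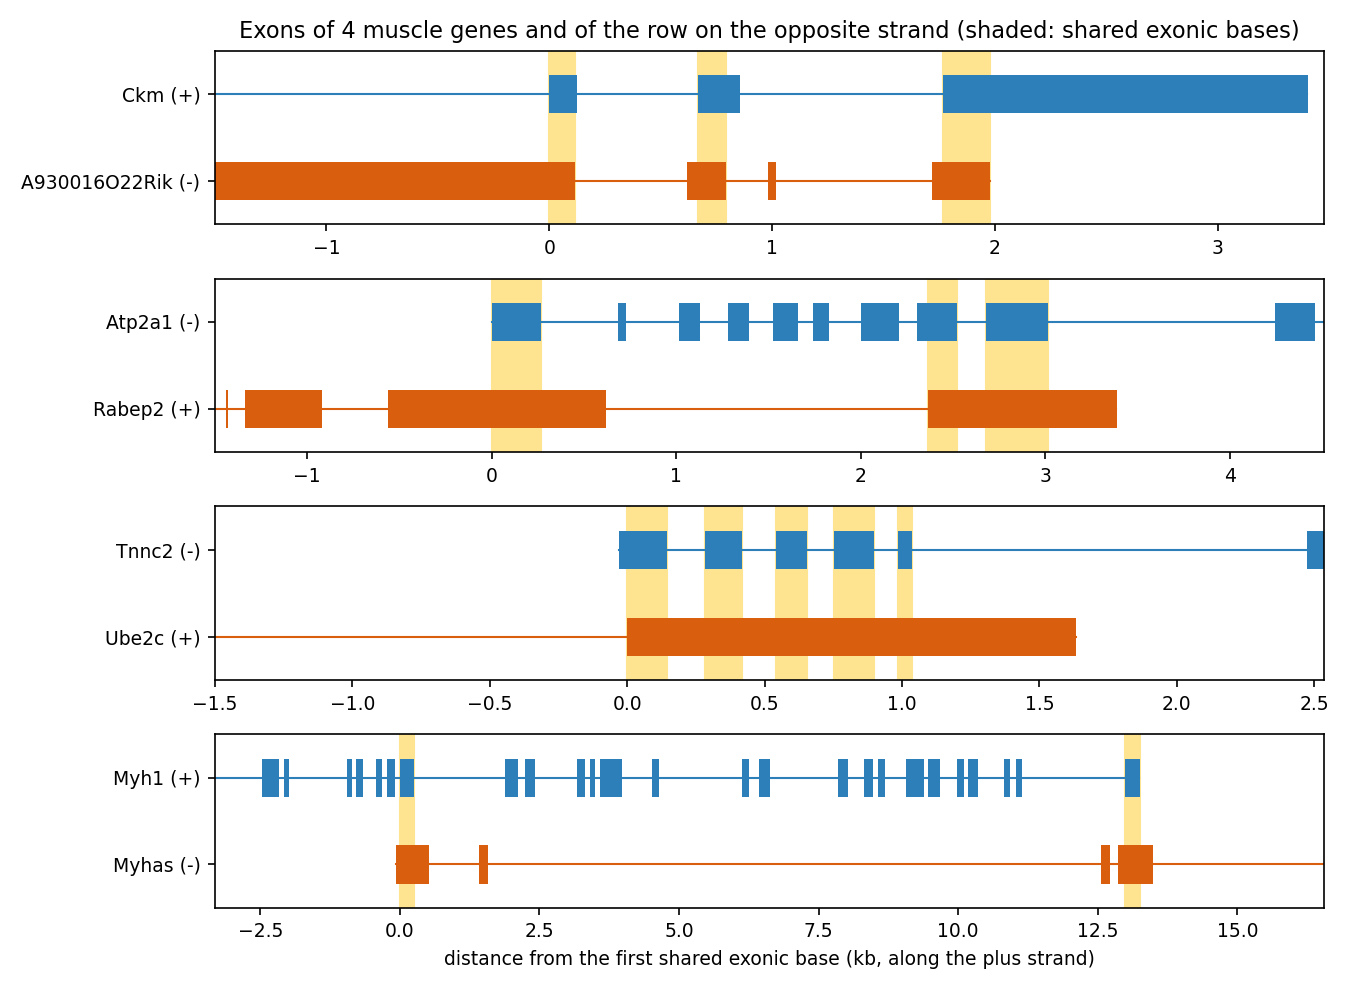
Exons (boxes) of Ckm, Atp2a1, Tnnc2 and Myh1 in blue and of the row on the opposite strand in orange, from GENCODE vM21, with the strand in brackets, shared exonic bases shaded and distance in kb from the first shared base along the plus strand on the x axis. The opposite rows share 451, 763, 592 and 515 exonic bases with the 4 muscle genes.

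The 2 rows with by far the most reads were those against the genes of energy supply and calcium uptake. Ckm encodes the muscle creatine kinase, and A930016O22Rik against it held 12, 16 and 6 reads in model 1, 2 and 3 and 351, 627 and 670 reads in RGLS 1, 2 and 3. Atp2a1 encodes SERCA1, the calcium pump of fast fibres, and Rabep2 against it held 19, 30 and 19 reads in model and 318, 766 and 745 in RGLS. In both rows the groups were far apart, and RGLS 1 was the lowest of the RGLS libraries. Summed over the libraries and scaled to library size, A930016O22Rik was 36.4 times higher in RGLS (95% counting interval 26.0 to 52.8) and Rabep2 20.2 times (15.9 to 26.2). Such intervals are exact and cover counting error only. Rabep2 itself encodes a protein that binds RAB GTPases of endosomes, and A930016O22Rik is annotated as an antisense RNA.

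The rows against thin and thick filament genes held far fewer reads, with the groups in the same order. Ube2c, named for a ubiquitin-conjugating enzyme of mitosis and lying against Tnnc2, the calcium-binding troponin C of fast fibres, held 3, 2 and 0 reads in model and 42, 41 and 40 in RGLS. It was 18.5 times higher in RGLS (counting interval 7.71 to 58.0), with the RGLS libraries close to each other. Gm44646 against Mybpc2, the fast form of myosin-binding protein C, held 0, 0 and 1 reads in model and 25, 46 and 31 in RGLS. With 1 model read its ratio of 76.7 had a counting interval of 13.5 to 3058. Myhas against Myh1, a fast myosin heavy chain, had no read in any model library and 7, 15 and 7 in RGLS. With 3 reads put in place of the 0 model reads its ratio was 7.27, for which no counting interval was computed.

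The remaining opposite rows lie against an actin-binding protein, an oxygen carrier and a gene of less known role. Gm13601, against the actin-binding Xin repeat gene Xirp2, held 1, 3 and 1 reads in model and 28, 20 and 30 in RGLS, 11.7 times higher after scaling (counting interval 4.82 to 37.1). Gm49540, against myoglobin (Mb), held 1, 0 and 1 reads in model and 23, 11 and 25 in RGLS, 22.2 times higher (5.87 to 187). Mb is known from oxidative fibres and heart rather than from the fastest fibres, so the term fast fits the partner genes unevenly. Ccdc127, against Lrrc14b, held 0, 5 and 0 reads in model and 30, 35 and 38 in RGLS, 15.5 times higher (6.43 to 48.7). Its 5 model reads were all in model 2.

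Acta1 and Des were picked as muscle genes themselves, not for a gene opposite them. Whether a gene lies across from their exons is not reported here. Acta1 (chromosome 8, 123891769 to 123894751, minus strand) held 1, 0 and 1 reads in model and 61, 62 and 41 in RGLS. Des (chromosome 1, 75360329 to 75368579, plus strand) held 2, 1 and 0 reads in model and 46, 47 and 25 in RGLS. In contrast to the Ckm and Atp2a1 rows, both had their fewest CPM in RGLS 3. The coding sequence of Acta1 is close to those of the other actin genes, and the sources used here do not say how reads matching several of them were counted.

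Acta1 and Des are the members that are muscle genes themselves. Their 250 bases upstream of the annotated start are printed below from RefSeq on GRCm38.p6, in the direction of the gene. Acta1 is chr8:123894776-123895025 on the minus strand and Des chr1:75360042-75360291 on the plus strand. Capitals mark matches, searched on both strands, to the E-box CANNTG, the sequence bound by MyoD-type factors, to TATAAA and to the CArG box, the sequence bound by serum response factor.
Acta1: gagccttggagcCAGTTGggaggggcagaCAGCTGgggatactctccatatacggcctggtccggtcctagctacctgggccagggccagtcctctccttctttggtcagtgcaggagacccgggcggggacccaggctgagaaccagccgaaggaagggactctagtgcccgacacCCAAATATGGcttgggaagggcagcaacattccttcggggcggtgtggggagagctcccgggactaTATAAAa
Des: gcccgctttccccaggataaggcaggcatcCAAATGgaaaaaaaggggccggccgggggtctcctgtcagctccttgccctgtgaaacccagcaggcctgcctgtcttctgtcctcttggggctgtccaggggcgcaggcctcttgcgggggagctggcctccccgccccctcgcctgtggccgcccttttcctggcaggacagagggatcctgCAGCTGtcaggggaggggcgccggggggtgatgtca
Acta1 had 2 E-boxes, which began 238 and 221 bases before the start, a CArG box 73 bases before it and TATAAA 7 bases before it, and these matches did not overlap. Des had 2 E-boxes, 220 and 36 bases before the start, and no match to the other motifs. An E-box was present in 66.2% of all 32851 mouse promoters of this length, TATAAA in 12.4% and a CArG box in 1.47%. A match to the MEF2 motif, another muscle gene motif, was present in 2.92%. Of the promoters of Acta1, Des and the 8 partner genes, 9 of 10 held an E-box, 3 TATAAA, 3 a MEF2 match and 1 a CArG box. These matches describe the letters only.

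In all 10 rows every RGLS library was above every model library, the pattern they were picked for. Over all 20160 rows 6.95% had every RGLS library above every model library, and nothing is read from that comparison. At least 1 CPM in 3 libraries was reached by 6 of the 10, all except Gm44646, Gm13601, Gm49540 and Myhas, and at least 0.25 CPM by all 10. Together the 10 rows held 2.24, 3.22 and 1.65 CPM in the model libraries and 36.3, 73.0 and 77.2 CPM in the RGLS libraries. Their share of the reads in all rows was 0.0111% ± 0.00402 for model and 0.326% ± 0.107 for RGLS (SD, n = 3 libraries a group). In whole tissue, more cells that contain a transcript and more of the transcript in each cell cannot be told apart.

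**Figure D2:**
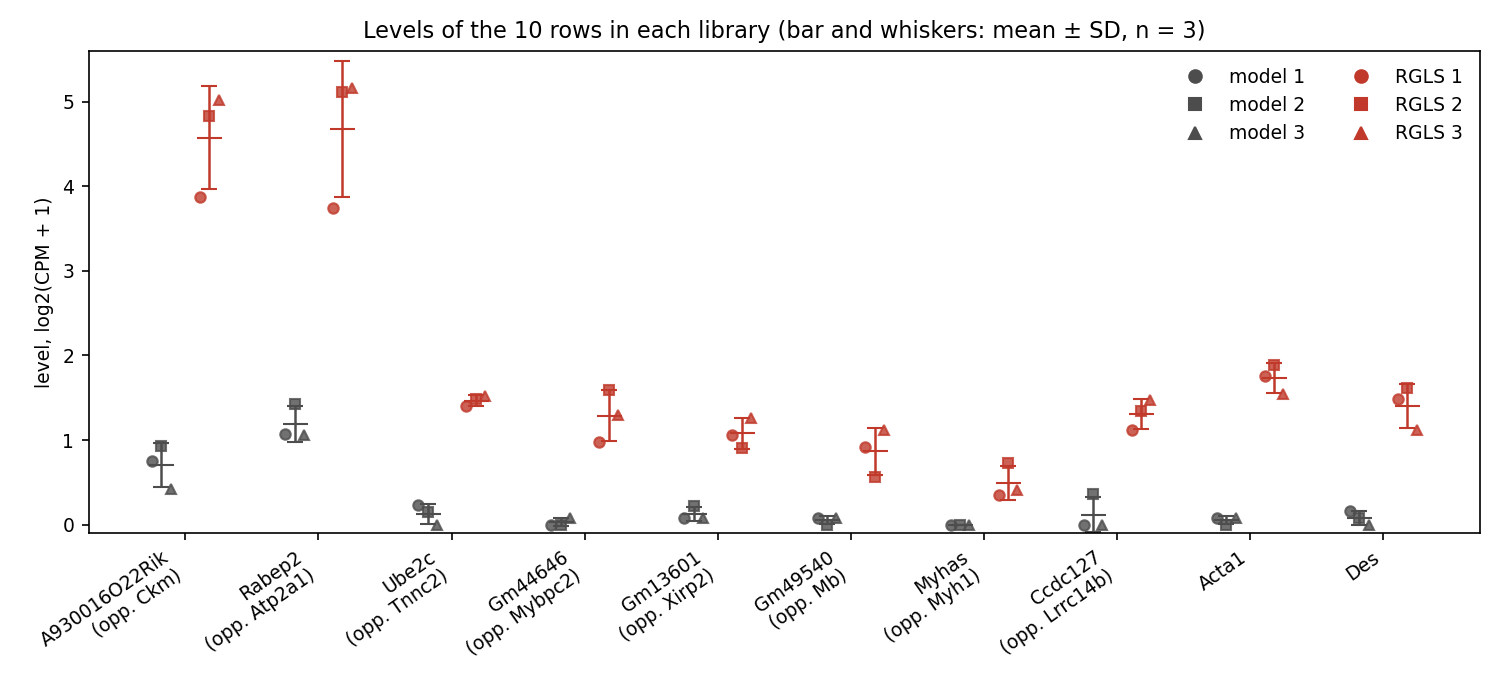
Level of each of the 10 rows as log2(CPM + 1), with model libraries in grey, RGLS libraries in red, a symbol for each library and mean ± SD (n = 3) of the log2 values; opp. gives the muscle gene on the opposite strand. A930016O22Rik and Rabep2 stand above the other 8 rows in every RGLS library, at 12.4 to 34.8 CPM, and Myhas has the lowest RGLS mean.

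Counted per kilobase of exon, the order of the rows in RGLS changed less at the top than at the bottom. In CPM per kilobase of exon, A930016O22Rik had a level of 9.42 ± 3.62 in RGLS and Rabep2 of 5.05 ± 2.36 (SD, n = 3). Gm13601, with only 404 exonic bases, came next with 2.78 ± 0.658 and Gm44646 with 2.29 ± 0.804, above Acta1 with 1.52 ± 0.259 and Gm49540 with 1.33 ± 0.543. Among these 6, neighbours in the order differed by less than their SDs added together. Ube2c had 0.679 ± 0.0457, Des 0.445 ± 0.121, Myhas 0.206 ± 0.102 and Ccdc127 0.156 ± 0.0320. Of these, Ube2c, Des and Myhas each lay below the row before by more than the added SDs, and Ccdc127 did not.

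Because reads can come from the muscle gene, the RGLS reads were also divided by the length of the shared exons alone. On that scale A930016O22Rik held 3654 reads per shared kilobase over the 3 RGLS libraries and Rabep2 2397. Gm44646 followed with 531 and Gm13601 with 464, then Ube2c with 208 and Gm49540 with 143. Myhas held 56.3 and Ccdc127 37.4. The rows against creatine kinase and the calcium pump thus stayed highest on both scales. Acta1, counted over all its exons, held 107 reads per kilobase and Des 31.4. Where in a row its reads lay is not in the table, so the reads per shared kilobase assume that every read fell in the shared exons.

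The rows kept different proportions to each other in the 3 RGLS libraries. A930016O22Rik and Rabep2 together held 26.1, 60.9 and 66.1 CPM in RGLS 1, 2 and 3, so RGLS 1 was well below the other RGLS libraries. The other 8 rows together were nearly level, with 11.1 ± 0.948 CPM (SD, n = 3) in RGLS, between 10.2 and 12.1, and 0.437 ± 0.198 in model. The split by library differed among these 8 as well. Ube2c was spread almost evenly, with 30.9%, 33.8% and 35.3% of its RGLS level in RGLS 1, 2 and 3. Myhas had 52.2% and Gm44646 45.3% of theirs in RGLS 2. Gm49540 had 45.9% in RGLS 3 and 18.9% in RGLS 2, and Gm13601 41.7% and 26.0%.

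The ratio of A930016O22Rik to Rabep2 lay between 0.819 and 1.10 in the RGLS libraries, with RGLS 1 and RGLS 2 intervals that did not overlap. It was 1.10 in RGLS 1 (counting interval 0.946 to 1.29), 0.819 in RGLS 2 (0.735 to 0.911) and 0.899 in RGLS 3 (0.809 to 0.9996). The ratio of Acta1 to Des was 1.33, 1.32 and 1.64, with intervals that overlapped. Across these pairs the ratio moved more. A930016O22Rik held 5.75 reads for each Acta1 read in RGLS 1 (4.37 to 7.68), 10.1 in RGLS 2 (7.78 to 13.4) and 16.3 in RGLS 3 (11.9 to 23.0). The RGLS 1 interval did not overlap those of the other libraries. Rabep2 held 5.21, 12.4 and 18.2 reads for each Acta1 read, again with RGLS 1 apart. Against Ube2c, the ratio of A930016O22Rik was 8.36, 15.3 and 16.8. For the other opposite rows the ratio to Acta1 lay between 0.115 and 0.976. Within this range Gm49540 moved too, with 0.377, 0.177 and 0.610 reads for each Acta1 read. Its RGLS 2 interval (0.0842 to 0.340) did not overlap that of RGLS 3 (0.355 to 1.03). In the rest of these rows the intervals of the RGLS libraries overlapped. Acta1 and Des made up 11.5% of the reads of the 10 rows in RGLS 1, 6.53% in RGLS 2 and 4.0% in RGLS 3. So the 10 rows did not move as 1 block between the RGLS libraries, and the reason was not tested.

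**Figure D3:**
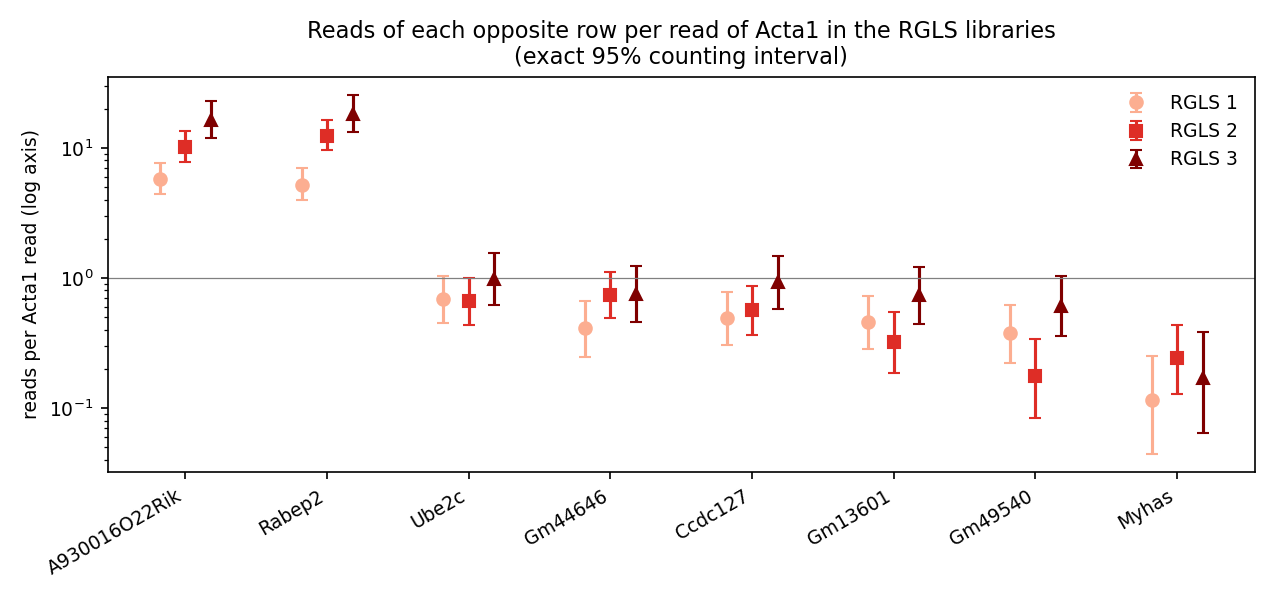
Reads of each opposite row per read of Acta1 in each RGLS library on a log axis, with exact 95% counting intervals. A930016O22Rik and Rabep2 lie between 5.21 and 18.2 reads per Acta1 read and are lowest in RGLS 1, while the other 6 rows lie under 1.

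The own rows of the 8 partner genes were not used to choose the 10 rows. Every RGLS library was above every model library in 3 of the 8 (37.5%, against 6.95% of all rows), Atp2a1, Mybpc2 and Xirp2, and the RGLS mean was higher in 6 of the 8. Ckm itself held 37, 24 and 44 reads in model and 57, 59 and 55 in RGLS. On the log2(CPM + 1) scale it differed by 0.22 (SE 0.20; adjusted p = 0.530, limma), so it did not pass the test where the row against it was 36.4 times higher. Lrrc14b held 110, 152 and 181 reads in model and 219, 188 and 234 in RGLS, a log2 difference of 0.13 (SE 0.18; adjusted p = 0.693, limma). These 2 own rows reached the 1 CPM needed for the test, which called 0.949% of 2319 rows higher and 0.517% lower.

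The other 6 own rows were sparse. At a lower limit of 0.25 CPM, where limma called 1.62% of 5727 rows higher and 0.559% lower, Atp2a1 and Tnnc2 could be tested too. Atp2a1 held 2, 9 and 2 reads in model and 17, 26 and 32 in RGLS, 4.34 times higher after scaling (counting interval 2.39 to 8.52), against 20.2 times for Rabep2. Its log2 difference of 0.75 (SE 0.21) missed the threshold of 0.05 with limma (adjusted p = 0.0529) and with edgeR (0.0763), which called 1.01% of the same rows higher and 0.297% lower. limma called it higher when no minimum was set (adjusted p = 0.0036) and when the replicate number was fitted as a block at 0.25 CPM (0.00639). Tnnc2 held 16, 17 and 16 reads in model and 18, 8 and 8 in RGLS, a log2 difference of -0.40 (SE 0.20; adjusted p = 0.284, limma), with every RGLS library below every model library in CPM. Its mean thus lay on the other side from that of Ube2c, the row against it. Mybpc2 held 2, 3 and 0 reads in model and 6, 16 and 8 in RGLS, 4.51 times higher (counting interval 1.73 to 14.9). Xirp2 had none in model and 7, 2 and 1 in RGLS, Mb 2, 5 and 1 in model and 3, 0 and 3 in RGLS, and Myh1 none in model and 0, 0 and 2 in RGLS. Mybpc2, Xirp2, Mb and Myh1 were too low to test.

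The split of reads between the own row and the opposite row therefore differed between the groups in most pairs. At Ckm 24.5% of the reads of the pair were on A930016O22Rik in model (exact interval 17.6 to 32.5) and 90.6% in RGLS (89.2 to 91.9). Per library the share was 24.5%, 40.0% and 12% in model and 86.0%, 91.4% and 92.4% in RGLS. At Tnnc2 the share on Ube2c was 9.26% in model (3.08 to 20.3) and 78.3% in RGLS (71.1 to 84.5). At Atp2a1 the opposite row held most reads already in model, 84.0% (74.1 to 91.2), against 96.1% in RGLS (95.1 to 96.9). At Lrrc14b the own row held most reads in both groups, and the share on Ccdc127 was 1.12% in model (0.363 to 2.59) and 13.8% in RGLS (11.4 to 16.5). At Xirp2 the share went the other way, from 100% of 5 model reads on Gm13601 (47.8 to 100) to 88.6% in RGLS (80.1 to 94.4), with overlapping intervals. The shares at Mybpc2 and Mb rested on 6 and 10 model reads. In RGLS 7 of the 8 pairs had over 77% of their reads on the opposite row, all except Lrrc14b. Since the opposite rows were picked for their difference, these changes in share are described and not tested.

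**Figure D4:**
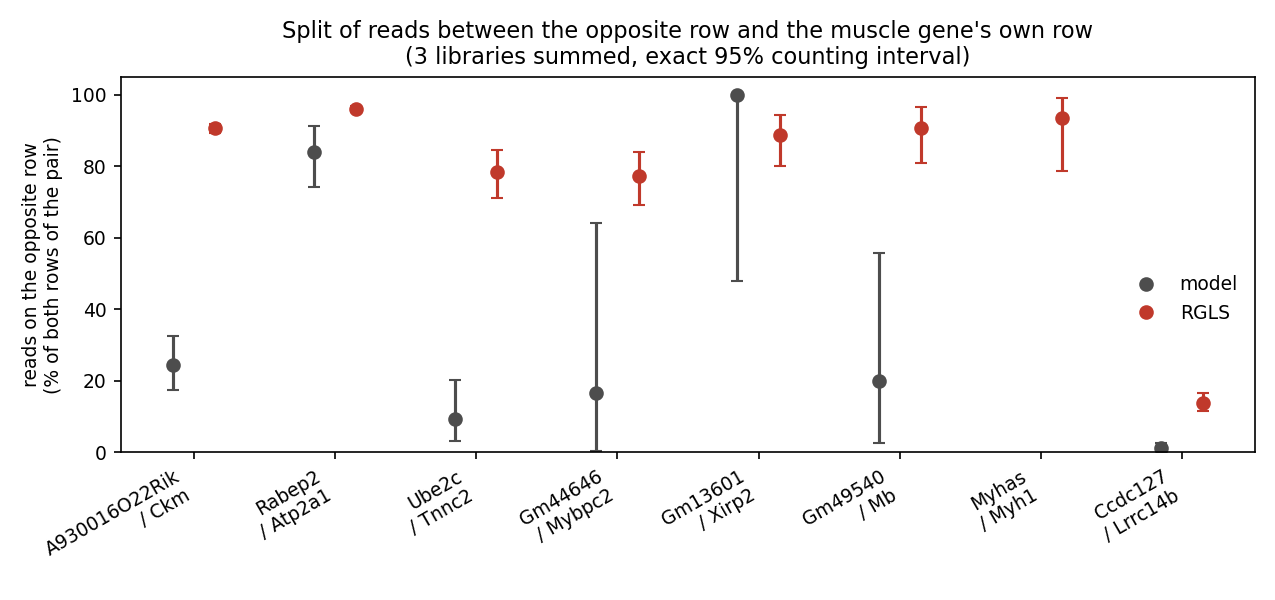
Percent of the reads of each pair that lay on the row opposite the muscle gene, over the 3 model libraries (grey) and the 3 RGLS libraries (red) summed, with exact 95% counting intervals. Myhas and Myh1 had no model read. In RGLS 7 of 8 pairs lie above 77%, and in model the Ckm, Tnnc2, Mybpc2, Mb and Lrrc14b pairs lie under 25%.

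Other muscle genes were looked at through 6 lists of 107 genes, the 8 partners included, for fast fibres, slow fibres, the sarcomere, calcium release and the membrane, and energy metabolism. Of these 79 had a row, 28 of them with no read in any model library and 2 with none in any RGLS library. At 1 CPM 10 rows were tested and limma called 0, as did edgeR with the same rows. At an unadjusted p under 0.05 limma had 0 of the 10 rows. Over all 2319 rows tested it had 140 higher and 400 lower there. The median log2 fold change of the 10 was 0.08 against -0.17 over all rows tested. At 0.25 CPM 22 were tested and 1, Myh4, was called, with a median of 0.06 against -0.03. Every RGLS library lay above every model library in 9 of the 79 rows (11.4%, against 6.95% of all rows), and below in 2 (2.53%, against 4.96%). The 2 below were Tnnc2 and the sarcomere gene Myom1. Myom1 held 5, 4 and 3 reads in model and 0, 1 and 1 in RGLS, a ratio of 0.125 (counting interval 0.0136 to 0.563).

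Myh4, the myosin heavy chain of the fastest fibres, had no read in model and 15, 11 and 7 reads in RGLS, so it reached 0.25 CPM through the RGLS libraries alone. Its log2 difference was 0.55 (SE 0.13; adjusted p = 0.0291 with limma and 0.0397 with edgeR). With 3 reads put in place of the 0 model reads its ratio was 8.27, without a counting interval. With no minimum, where every row was tested, limma also called it (adjusted p = 0.0295). limma kept the call at 0.25 CPM without RGLS 3 (adjusted p = 0.00462) and lost it without any of the other 5 libraries (0.0859 to 0.191). The other rows of the fast list had few reads. Tpm1, a tropomyosin of fast fibres and other tissues, held 2, 3 and 1 reads in model and 11, 10 and 5 in RGLS. Mylpf, the fast regulatory light chain, held 0, 2 and 1 reads in model and 2, 2 and 20 in RGLS, so it was high in RGLS 3 alone. Tnnt3, the fast troponin T, and Tnni2, the fast troponin I, held 4 and 2 reads in RGLS in all. Pgam2, the muscle phosphoglycerate mutase and the fast row with most reads, held 23, 20 and 34 reads in model and 23, 24 and 28 in RGLS (limma adjusted p = 0.509). Myh2, Myl1, Pvalb, Mylk2 and Sln had no row in the table used here.

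The slow list had 7 rows, whose summed level (mean ± SD of 3 libraries) was 1.94 ± 0.325 CPM for model and 2.33 ± 0.499 for RGLS, beside 1.88 ± 0.694 and 2.83 ± 0.386 over the 12 fast rows. Most slow reads were on Atp2a2 and Myh7b, and the rows specific to slow sarcomeres were at or near 0. Myh7, the slow myosin heavy chain, held 1 read over all 6 libraries, and so did Tnni1, the slow troponin I. The rows against Myh7 held as little, Gm31251 with 4 reads in model and 1 in RGLS, and Mhrt with 1 in RGLS. Atp2a2, the calcium pump of slow fibres and of most other cells, held 22, 21 and 20 reads in model and 45, 28 and 25 in RGLS (log2 difference 0.11, SE 0.19; adjusted p = 0.777, limma). Myh7b, a myosin also found outside slow muscle, held 15, 10 and 5 reads in model and 16, 19 and 11 in RGLS, and Tpm3, a tropomyosin of slow fibres and other cells, 2, 3 and 3 and 12, 3 and 3. Of the giant sarcomere proteins, Neb held 50, 45 and 59 reads in model and 77, 55 and 69 in RGLS (limma adjusted p = 0.960), and Ttn did not pass either (0.814). Unc45b, a myosin chaperone, Ryr1, the calcium release channel, and Atp2a2 were tested and not called. The next rows of the calcium and membrane list, the chloride channel Clcn1 and the acetylcholine receptor subunit Chrnb1, had limma adjusted p of 0.964 and 0.889 at 0.25 CPM. Of the metabolism list, Phkg1 of glycogen breakdown had 0.821, Gpd1 of the glycerol phosphate shuttle 0.955 and Pfkm of glycolysis 0.694. Ttn, Unc45b, Ryr1, Atp2a2, Clcn1, Phkg1 and Gpd1 have a gene opposite them as well. The SEs of Unc45b, Ryr1 and Atp2a2 on the log2 scale were 0.19 to 0.20.

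Rows against the other listed muscle genes were found by exon overlap in the annotation, from lists made with earlier results of these data known. There were 29 such rows outside the 10, against at least 50 exonic bases of a listed gene. Every RGLS library was above every model library in 8 of them (27.6%, against 5.41% of the 6281 rows that have a gene opposite), and below in 3 (10.3%, against 10.2%). At 1 CPM 3 were tested, and limma and edgeR called 0. At an unadjusted p under 0.05 limma had 0 of the 3 higher and 1 lower, against 140 and 400 of all 2319 rows tested. At 0.25 CPM 8 were tested and limma called 2 higher and 0 lower, with a median log2 fold change of 0.23 against -0.03 over all rows tested.

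Gm37759 (chromosome 1, 136116577 to 136119822) shares 1309 bases with Cacna1s, the voltage sensor that triggers calcium release, and held 3, 0 and 1 reads in model and 14, 31 and 34 in RGLS. It was 14.8 times higher in RGLS (counting interval 5.57 to 55.8), a log2 difference of 0.98 (SE 0.20; adjusted p = 0.0120 with limma and 0.0167 with edgeR). It reached 0.25 CPM through the RGLS libraries alone, and with no minimum limma also called it (adjusted p = 5.15e-06). Like the Ckm and Atp2a1 rows it was lowest in RGLS 1 among the RGLS libraries. Its call was lost without model 2 (adjusted p = 0.0771), model 3 (0.0792) or RGLS 2 (0.0550). Gm47108 (chromosome 9, 121775024 to 121778146) shares 540 bases with Klhl40, a protein that stabilises thin filaments, and held 1, 0 and 0 reads in model and 15, 10 and 8 in RGLS. It was 24.8 times higher (4.15 to 1009), a log2 difference of 0.52 (SE 0.13; adjusted p = 0.0419 with limma). It too reached 0.25 CPM through the RGLS libraries alone (adjusted p = 0.0489 with limma and no minimum). edgeR did not call it (adjusted p = 0.0572), and it was called without RGLS 3 only when single libraries were left out (limma adjusted p = 0.00981, against 0.0835 to 0.225 for the others).

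The other 6 rows with every RGLS library above every model library were not called at 0.25 CPM. Of these only Gm15943 reached that minimum in 3 libraries and was tested. Gm15943, against 186 bases of Fbxo32, the ubiquitin ligase atrogin that rises in muscle wasting, held 7, 8 and 7 reads in model and 24, 39 and 24 in RGLS (log2 difference 0.65, SE 0.21; adjusted p = 0.0826, limma). Habp2, against 268 bases of Nrap, a protein of myofibril assembly, held 0, 0 and 1 reads in model and 12, 4 and 15 in RGLS. Chrna10, against Art1, a mono-ADP-ribosyltransferase of muscle, held none in model and 5, 3 and 5 in RGLS. Myl12a, against Myom1 of the M-band, held 1, 1 and 0 in model and 4, 4 and 4 in RGLS. 9430073C21Rik, against the fast myosin Myh2, held 2 reads in each RGLS library, and Gm26604, against Ryr1, held 1, 3 and 1, with none in model. These last 4 rows, from Chrna10 on, rested on 5 to 13 RGLS reads each.

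Not all rows against muscle genes followed. The 3 rows with every RGLS library below every model library were Clvs1 against Asph, Gm43361 against Atp2a2 and Gm15475 against Dysf. Clvs1 held 249, 232 and 256 reads in model and 282, 199 and 259 in RGLS, and did not pass the test (log2 difference -0.38, SE 0.15; adjusted p = 0.148, limma). Gm43361 held 3, 6 and 8 reads in model and 3, 0 and 1 in RGLS, and Gm15475 5, 9 and 4 and 4, 2 and 0. Gm16537, against the glycerol phosphate dehydrogenase gene Gpd1, held 106, 58 and 93 reads in model and 44, 58 and 309 in RGLS, with RGLS 3 alone above the rest. Among the 19 rows with at least 200 shared bases, every RGLS library was above every model library in 7 (36.8%) and below in 2 (10.5%). Over all 6281 rows that have a gene opposite, at the lower minimum overlap, these shares were 5.41% and 10.2%. The shares over all rows with at least 200 shared bases were not computed, so the 36.8% has no matched comparison.

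**Figure D5:**
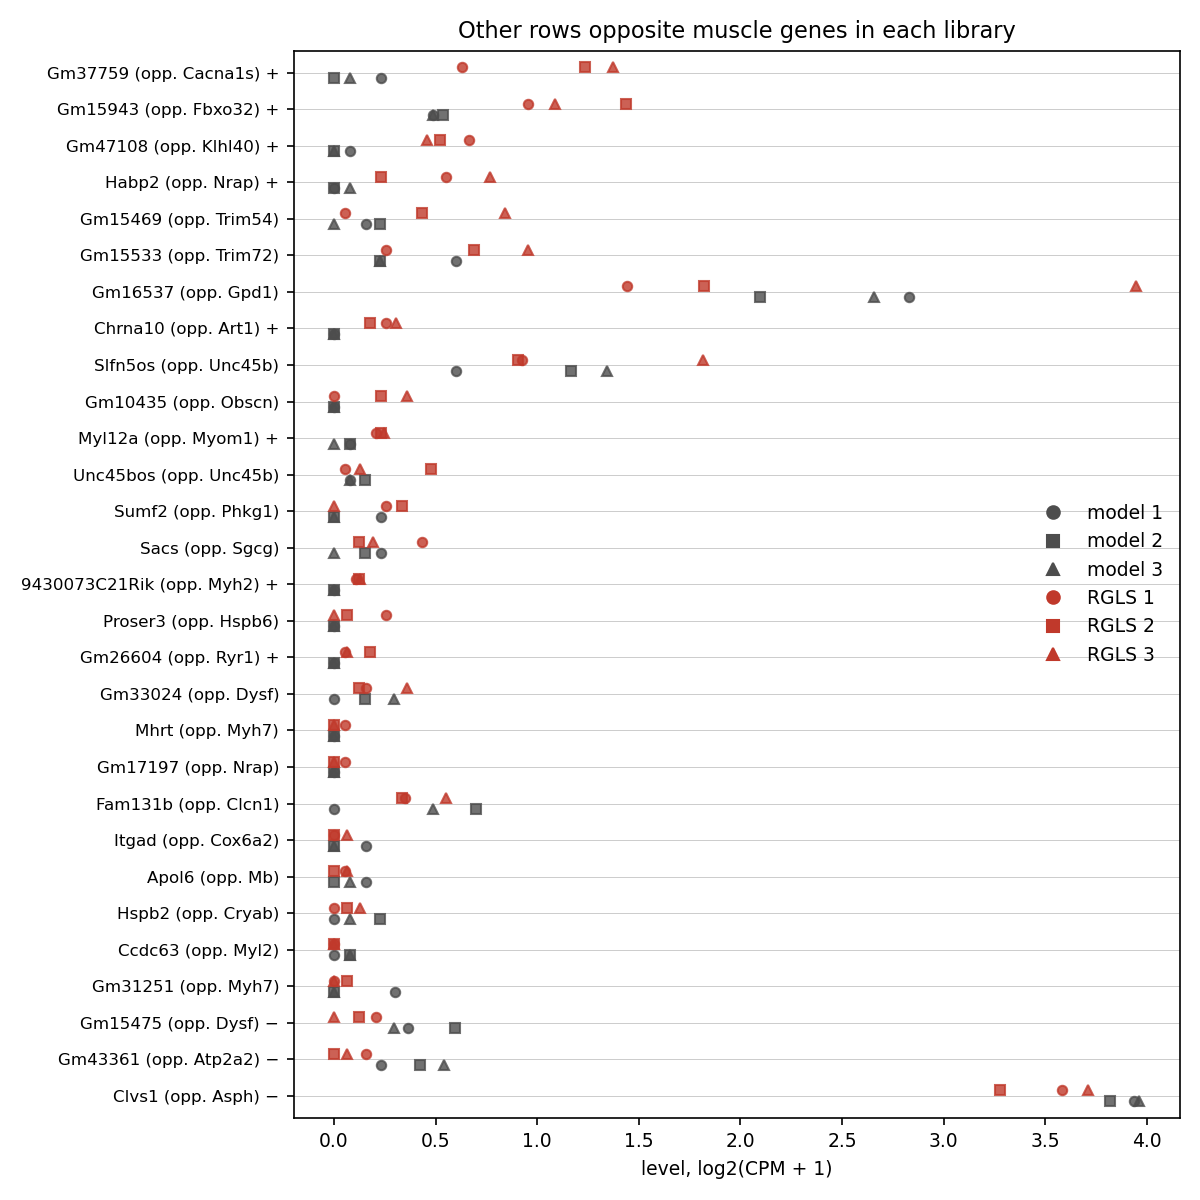
Levels in each library, as log2(CPM + 1), of the 29 rows outside the 10 that lie opposite a listed muscle gene (named after opp.), ordered by the difference between the group means, with model in grey and RGLS in red. A plus after the name marks the 8 rows with every RGLS library above every model library and a minus the 3 with every RGLS library below.

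Markers of other cells and of muscle precursors were checked beside these rows. The listed genes of myoblasts and muscle regeneration, such as Myod1, Myog and Myf6, summed to 0 to 0.173 CPM in the model libraries and 0 to 0.437 in RGLS, with 17 RGLS reads over 8 rows. Cardiac muscle markers summed to 0.230 to 0.622 CPM in model and 0.218 to 0.701 in RGLS. Smooth muscle markers, which Des can accompany, summed to 2.59 to 3.54 and 2.18 to 4.48 CPM, and adipocyte markers to 0.457 to 1.09 and 0.262 to 0.841. Keratinocyte and hair markers summed to 3.28 to 5.48 CPM in model and 2.45 to 3.35 in RGLS, with some overlap. Endothelial markers summed to 0.0571 to 0.691 and 0.218 to 0.654 CPM, and macrophage markers to 14.4 to 16.5 and 11.7 to 13.7. Most of the macrophage sum was Csf1r, which lies opposite Hmgxb3 and had 14.2 and 10.3 CPM on average, while 6 of the 7 macrophage rows had a higher mean in RGLS.

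Summed over 11 genes of axons and Schwann cells, nerve markers had 0.342 to 0.566 CPM in model and 3.08 to 3.74 in RGLS. In 3 of the 11 rows (27.3%, against 6.95% of all rows) every RGLS library was above every model library. At 0.25 CPM 2 rows were tested and limma called 1, Nefm, higher, where it called 1.62% of all 5727 rows higher. Nefm and the other row tested, Mbp, both reached 0.25 CPM through the RGLS libraries alone. Most of the sum was Nefm, a neurofilament gene with 2, 2 and 1 reads in model and 54, 63 and 59 in RGLS. Fibroblast and sarcoma markers had 1.65 to 2.07 CPM in model and 2.52 to 5.42 in RGLS, and 15 housekeeping genes 21.3 to 32.7 and 28.7 to 41.1. In 3 of 9 fibroblast and sarcoma rows (33.3%) and 2 of 15 housekeeping rows (13.3%) every RGLS library was above every model library. limma called 1 of 6 housekeeping rows higher at 1 CPM (0.949% of all rows) and 2 of 8 at 0.25 CPM (1.62%). It called no fibroblast or sarcoma row at either minimum. The part of nerve or fibroblast content and of library depth in the levels of the muscle rows was not tested.

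To find rows with a like pattern, the share of a row's summed CPM in each of the 6 libraries was set against the mean shares of the 10 rows, where 100 is an identical profile. The mean profile of the 10 had 1.21%, 1.69% and 0.752% in model 1, 2 and 3 and 26.2%, 35.7% and 34.4% in RGLS 1, 2 and 3. Set against the other 9, the likeness of single members lay between 78.5 for Gm49540 and 94.1 for Ube2c. Among 2252 other rows with a mean of at least 1 CPM the median likeness was 49.8. Nefm was the most alike with 98.8. It lies opposite Nefl, another neurofilament gene, over 1108 exonic bases, so it is of the same kind as the 8 opposite rows.

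A gap followed Nefm. The next rows were Gm6204 (83.5), Eif4g1 (83.3), Krt8-ps (79.3), Gm5421 (79.0), Gm7832 (78.7), Gm9892 (78.4), Psap (78.3), Gm12346 (77.8) and Tubb4b (77.5), and the eleventh had 77.48. Of these, Gm6204, Krt8-ps, Gm5421, Gm7832, Gm9892 and Gm12346 are annotated as pseudogenes, Eif4g1 is a translation initiation factor, Psap the precursor of the saposins and Tubb4b a tubulin. None of these 9 was at 0 in any library, and their ratios between the groups lay between 3.13 for Gm5421 and 4.71 for Gm9892, under that of each of the 10 muscle rows. None of the 10 most alike rows is on a muscle list. The minimum of 1 CPM kept out most muscle rows, and 7 of the 10 members would not have met it either, all except A930016O22Rik, Rabep2 and Acta1.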

How the data were processed

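RNA-seq of 6 tumour samples (3 model, 3 RGLS) was available as 1 table with a column for each sample. Per the submitters' processing notes Bowtie2, HTSeq and the build mm10 were used, without versions or roles. The authors deposited CPM values scaled by TMM, a trimmed-mean correction of library size, with no correction for gene length. In each column every value was a whole multiple of the smallest (100% within 0.001 of a read), and read counts and effective library sizes were recovered from this. The table had 20160 rows, of which 19732 had a symbol in GENCODE vM21 (GRCm38), and 0 columns of other samples. A row counted as opposite a gene with at least 50 shared exonic bases.

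The 10 rows and the 16 gene lists were chosen with earlier results of these data known, so no list is independent evidence of its direction.

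Rows were compared with limma 3.58.1 in R 4.3.3. The test was 2-sided, used log2(CPM + 1) and an intensity trend, was adjusted by Benjamini-Hochberg with a threshold of 0.05, and took rows with at least 1 CPM in 3 libraries. Fold changes on that scale understate the change of low rows. Since most muscle rows were below 1 CPM, the test with a minimum of 0.25 CPM is given beside it. edgeR 4.0.16 (quasi-likelihood) and DESeq2 1.42.0 on the recovered reads were alternatives, with other pseudocounts (0.1 and 5), filters and scalings, the replicate number as a block, and each library left out in turn. edgeR, the block and the left-out libraries at 0.25 CPM were added after seeing the data. Ratios are of reads summed per group over summed effective library sizes, with exact 95% intervals. Where the model group had 0 reads, 3 reads were used for it and the ratio is given without an interval. Such a ratio leaves out the counting error of the RGLS reads.

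Named genes were the 10 rows, the 8 partner genes, list rows past a threshold, the 3 rows with most reads of each muscle list, and the 10 most alike rows. Any other named row was picked with its values in view, and of the lists of other cells mostly sums are given. On simulated reads (dispersion 0.0448) limma recovered 62 of 100 rows changed 2-fold and 92 of 100 changed 4-fold among 2354 rows at 1 CPM. Among 5783 rows at 0.25 CPM it recovered 58 and 97, with 8 and 9 unchanged rows called at the 2 filters. All changed rows, and the dispersion, were taken from rows with at least 1 CPM in 3 libraries. The simulation therefore does not show how well changes in rows of 0.25 to 1 CPM are found. No 2 of the 6 libraries were duplicates: the 15 pairs all differed beyond sampling noise. Where the samples of a group do not come from separate mice, p-values measure only the spread between these samples.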

Additional observations from a re-analysis of the deposited data

How the results depend on the processing

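Over all rows, 22 were called higher and 12 lower. Without 1 library, 7 to 103 were called higher and 3 to 106 lower, the highest counts in each case without RGLS 3. A pseudocount of 0.1 gave 9 and 4, no intensity trend 11 and 3, the same median in every library 10 and 4, edgeR with its own TMM factors 14 and 3, and DESeq2 50 and 4. No filter gave 208 and 67, a minimum of 0.25 CPM 93 and 32, and 5 CPM 6 higher. edgeR at 0.25 CPM called 58 higher, and at 0.25 CPM limma called 13 to 53 higher without a model library, 10 to 335 higher without an RGLS library, and 4 to 150 lower without any 1 library.

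For the muscle genes' own rows the count of 0 higher became 2 (Atp2a1 and Myh4) without a filter and 1 at 0.25 CPM with limma and with edgeR, and 0 to 1 there without 1 library. For the other opposite rows 0 became 3 without a filter (Gm15943, Gm37759 and Gm47108), 2 at 0.25 CPM with limma, 1 with edgeR, and 0 to 3 without 1 library. The count of opposite rows called lower was 0, and 0 to 1 without 1 library at either filter (Clvs1, without RGLS 3). An overlap of at least 200 bases changed none of the counts called at 1 CPM.

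The replicate block gave 111 higher and 120 lower over all rows, 272 and 132 at 0.25 CPM, and there 2 own rows (Atp2a1 and Myh4) and 3 opposite rows (Gm15943, Gm37759 and Gm47108) higher. Deviations of same-numbered libraries from their group means had correlations of 0.0044, -0.0056 and 0.378, and not every library correlated best with its own number. With 3 libraries a group, these values cannot decide whether the numbers pair the samples.

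The log2 fold change of Mb turned from -0.08 to 0.019 with the same median in every library, and that of Lrrc14b from 0.13 to -0.038 without model 1 (-0.038 to 0.28 over the libraries left out). The cause was not tested. Many rows were low: of 79 own rows, 28 had no read in model and 2 had none in RGLS. The part of library depth in this was not tested. Ratios resting on 1 or 2 model reads have wide counting intervals. The unstated strand setting limits what every row measures.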
